A study of Mus musculus with 6 samples.

Results

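The genes described here are the 37 genes of the mouse mitochondrial chromosome, chosen as every row on that chromosome among the 47729 gene rows of the count files. They comprise 13 protein genes, 2 ribosomal RNA (rRNA) genes and 22 transfer RNA (tRNA) genes. Bulk RNA-seq was done on 6 libraries of CD144-enriched cells, that is, cells pulled from the ischemic hind limb muscle with beads against VE-cadherin to enrich for endothelial cells (ECs). All mice were on a high-fat high-sucrose (HFHS) diet and underwent hind limb ischemia (HLI) surgery on day 0, and all received adenovirus in the muscle on days 1 and 4 by the labels, with harvest after 1 week. WT + GFP denotes wild-type mice given Ad-GFP, an adenovirus encoding green fluorescent protein. KO + GFP denotes Leene-KO mice, which lack the genomic region syntenic to human LEENE, given the same vector. KO + LEENE denotes Leene-KO mice given Ad-LEENE, an adenovirus encoding GFP-tagged human LEENE, a long noncoding RNA. Each group has 2 libraries. KO + GFP differs from WT + GFP in genotype, and KO + LEENE differs from KO + GFP in the vector insert. The age of the mice at harvest and the number of animals behind each library are not given in the labels, the mice were on the C57BL/6J background, and the knockout removes DNA as well as RNA of the locus.

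Mitochondria keep a small circular genome that is transcribed from both strands into long precursors. The tRNA genes that lie between the other genes mark the sites at which these precursors are cut, which releases the rRNAs, the messenger RNAs and the tRNAs. The proteins encoded are core subunits of complexes I, III and IV of the respiratory chain and of the ATP synthase, and the rRNAs build the mitochondrial ribosome that translates them. Most of the mature RNAs carry a short poly(A) tail, so a protocol that selects poly(A) RNA captures them, whereas the mature tRNAs carry no such tail.

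Sequence bears on how these genes could be counted, because a stretch of chromosome 1 is nearly identical to part of the mitochondrial chromosome, and because a tRNA gene is about as short as a sequencing read. The sequences below are those of the 4 tRNA genes on which the results turn, named by the amino acid they carry (glutamine, methionine, arginine and proline), with the anticodon in capitals, and of the first 60 bases of mt-Nd3. All were read by gene from the GENCODE M39 transcripts, in which the start, end and strand of all 37 genes are the same as in the count files.
mt-Tq: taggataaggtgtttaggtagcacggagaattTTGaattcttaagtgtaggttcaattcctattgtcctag
mt-Tm: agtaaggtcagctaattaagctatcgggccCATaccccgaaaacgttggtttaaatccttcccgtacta
mt-Tr: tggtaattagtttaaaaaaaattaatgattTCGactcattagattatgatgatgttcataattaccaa
mt-Tp: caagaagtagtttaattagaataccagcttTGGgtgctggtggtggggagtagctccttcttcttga
mt-Nd3, first bases: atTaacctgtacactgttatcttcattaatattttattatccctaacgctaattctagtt
The capital in mt-Nd3 is its base 3, at position 9461 of the chromosome, 1 of the 2 bases that differ from the chromosome 1 copy (T9461C, with the mitochondrial base first). The run of 8 A in mt-Tr is the site at which the copy has 1 more A than the mitochondrial chromosome.

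The libraries held 4534530 and 4126552 assigned reads for WT + GFP, 5602603 and 3625419 for KO + GFP, whereas the KO + LEENE libraries held 1770992 and 1791336. The file headers carry 3 facility sample numbers for the 6 libraries, 1 shared by both libraries of each group, so P values measure only the spread between these libraries, which may be technical. The replicates lay close together. Among mitochondrial genes of at least 1000 reads, the largest fold between replicates in the share of mitochondrial reads was 1.018 for WT + GFP, 1.03 for KO + GFP and 1.052 for KO + LEENE, against 6.65 when a WT + GFP library was set against a KO + GFP one. The groups themselves stood far apart across the transcriptome. Of 8903 genes tested, 6239 were differentially expressed genes (DEGs, adjusted P below 0.05) between KO + GFP and WT + GFP, 6035 between KO + LEENE and KO + GFP, and 6295 between KO + LEENE and WT + GFP.

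Markers of other cells differed between the groups as well, and in KO + GFP a few genes carried the summed levels of their lists. The summed level of 10 endothelial genes, in CPM (counts rescaled so that every library has the same sum), was 418 and 399 for WT + GFP, 2382 and 2574 for KO + GFP, against 107 and 122 for KO + LEENE, and 7 of the 10 were over 3 reads per library in each group. The KO + GFP sum was mostly Emcn, with 12245 and 8648 reads there against 14 and 8 in WT + GFP, whereas Kdr went from 808 and 708 to 13 and 9 reads, Flt1 from 502 and 451 to 7 and 3, and Pecam1 from 211 and 175 to 140 and 89. Cdh5, which encodes VE-cadherin itself, had 332 and 283 reads, 322 and 196 reads, and 5 and 18 reads in the order of the sums. In KO + LEENE, at lower depth, Kdr had 47 and 41 reads and Pecam1 95 and 110, so against KO + GFP these markers did not fall with the sum. Relative to depth, Kdr and Flt1 (5 and 5 reads) were lower in KO + LEENE than in WT + GFP, whereas Pecam1 was not. The 7 fibroblast genes summed to 62.0 and 69.1 CPM, 1.594e+04 and 1.585e+04 CPM, and 81.9 and 82.6 CPM, with Lum and S100a4 at 0 in KO + GFP and KO + LEENE. Dcn, Col3a1 and Col1a2 made up nearly all of the KO + GFP sum, while Col1a1 had 30 and 35 reads in WT + GFP against 56 and 34, and Pdgfra 171 and 141 against 119 and 93. The 3 adipocyte genes summed to 13.2 and 9.45 CPM in WT + GFP, 7733 and 7615 CPM in KO + GFP, with Adipoq at 0, and 20.9 and 14.5 CPM in KO + LEENE. The KO + GFP sum was almost wholly Fabp4 (43315 and 27603 reads), and Plin1 had 27 and 18 reads in WT + GFP against 11 and 6. The sum of the 10 macrophage genes was also higher in KO + GFP, at 843 and 807 CPM with Itgam at 0, than in WT + GFP (29.99 and 40.5 CPM, Cd68 at 0) or KO + LEENE (17.5 and 13.96 CPM, with Itgam, Cd68 and C1qa at 0). Adgre1, Mrc1, Lyz2 and Fcgr1 carried it, whereas C1qb had 32 and 37 reads in WT + GFP against 1 and 5, and Csf1r 11 and 4 against 4 and 2. The 5 erythroid genes summed to between 866 and 2663 CPM, and were highest in WT + GFP. The 11 skeletal muscle fibre genes reached at most 33.9 CPM in any library, Tnnc2 being at 0 in all of them. Mural, neutrophil and satellite cell markers summed to at most 49.1, 2.21 and 7.82 CPM. The part that these cell types have in the mitochondrial values was not tested.

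To ask how much of each library came from the mitochondrial chromosome, its reads were first expressed as a share of all reads assigned to genes. In WT + GFP the 37 genes took 50.1% and 50.9% of the library, against 34.2% and 34.3% in KO + GFP, while the KO + LEENE libraries stood at 33.7% and 33.6%. The mean shares were 50.5% ± 0.563, 34.3% ± 0.0764 and 33.7% ± 0.0906 (SD, n = 2 each). The WT + GFP libraries were 1.47-fold above KO + GFP and 1.499-fold above KO + LEENE, a gap wider than the spread between replicates, whereas the KO groups lay 1.02-fold apart. With 2 libraries against 2, an exact two-sided permutation test cannot give a P value below 0.333, so these shares were not tested. A share in bulk RNA does not tell apart fewer cells of a type, less RNA per cell and fewer mitochondria per cell.

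The near-equal shares of the KO groups were made of different RNA. The rRNA genes took 34.7% ± 0.344 of the library for WT + GFP, 21.6% ± 0.0429 for KO + GFP and 31.8% ± 0.107 for KO + LEENE (SD, n = 2 each). The protein genes took 15.6% ± 0.217, 12.7% ± 0.0329 and 1.87% ± 0.0138, so that KO + LEENE was 6.77-fold below KO + GFP and 8.34-fold below WT + GFP. Within the chromosome the rRNA genes took 68.9% and 68.8% of the mitochondrial reads in WT + GFP, 63.0% in both KO + GFP libraries, but 94.4% and 94.3% in KO + LEENE. For each rRNA read there were 0.449 ± 0.00179 protein-gene reads for WT + GFP, 0.586 ± 0.000361 for KO + GFP and 0.0588 ± 0.000631 for KO + LEENE. Neither class overlapped between any pair of groups.

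**Figure D1:**
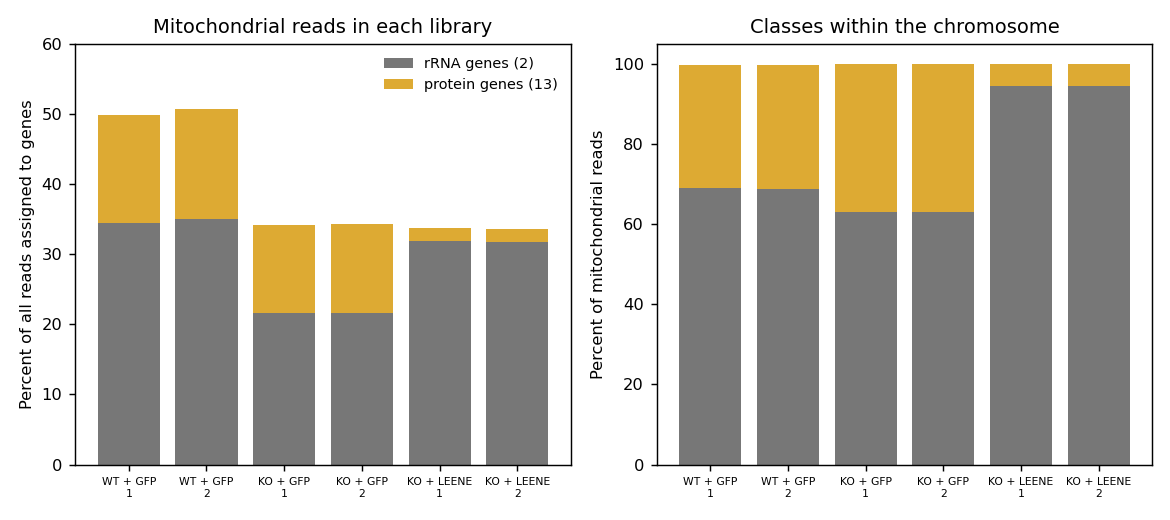
Bars give, for each of the 6 libraries, the percent of all assigned reads (left) and of mitochondrial reads (right) on the 2 rRNA genes (grey) and the 13 protein genes (yellow). The KO + GFP and KO + LEENE bars have nearly the same height on the left, at 34.3% and 33.7% with the tRNA genes included, but the protein genes make up 36.9% of the mitochondrial reads in KO + GFP and 5.55% in KO + LEENE.

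Of the 37 genes, 14 had no read in any library, 8 had 5 reads or fewer at most, and 15 had more and were tested by edgeR with the whole table. Against WT + GFP, 6 of the 15 were higher and 6 lower in KO + GFP, where 70.1% of all genes tested were DEGs, 34.2% higher and 35.9% lower. Against KO + GFP, 1 was higher and 12 were lower in KO + LEENE, where 67.8% of all genes were DEGs, 32.8% higher and 34.9% lower. Against WT + GFP, 1 was higher and 13 were lower in KO + LEENE, where 70.7% were DEGs, 33.9% higher and 36.9% lower. The comparisons share libraries and are not independent of each other. These calls rest on TMM scaling, which sets the bulk of genes near no change (median log2 fold change over all genes -0.09, -0.01 and -0.11 in the same order). With library size alone, that median was -0.57, 1.07 and 0.50, and the calls became 6 higher and 8 lower, 5 higher and 9 lower, and 3 higher and 11 lower. The share of all genes called with library size alone was not counted, so these counts are not read as a result about the 15 genes. Below, log2 fold changes without further remark are on the TMM scale, with the SE after the ± sign, and a second scale relates each gene to the mitochondrial reads of its library.

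On that second scale, which removes the chromosome's share of the library, 8 genes were higher and 6 lower in KO + GFP than WT + GFP (70.0% of all genes called, 35.3% higher and 34.8% lower). In KO + LEENE 5 were higher and 9 lower than in KO + GFP (74.8% called, 50.4% higher and 24.4% lower), and 5 were higher and 8 lower than in WT + GFP (74.9% called, 51.2% higher and 23.7% lower). The median over all genes on this scale was -0.02, 1.09 and 1.07. With the reads of the protein genes as the denominator in place of all mitochondrial reads, the calls were 6 higher and 7 lower, 11 higher and 2 lower, and 8 higher and 5 lower. Protein-gene reads took a 6.77-fold smaller share of the library in KO + LEENE than in KO + GFP, so this denominator raises genes there by construction. The share of all genes called with it was not counted, so these counts are not read as a result about the members.

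**Figure D2:**
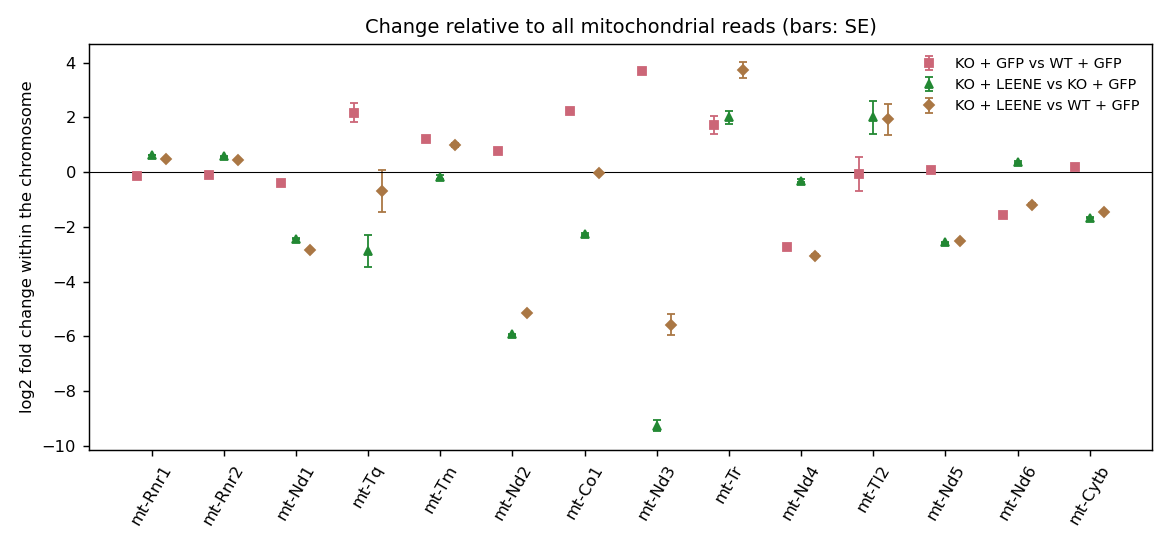
Points give the log2 fold change of each tested gene relative to all mitochondrial reads, with bars for the SE, in chromosomal order and for the 3 comparisons; mt-Tp, which had no read outside WT + GFP, is left out. The rRNA genes lie above 0 in both KO + LEENE comparisons and mt-Nd1, mt-Nd2, mt-Nd3, mt-Nd5 and mt-Cytb below, although relative to protein-gene reads mt-Nd1, mt-Co1, mt-Nd4, mt-Nd5, mt-Cytb and mt-Tm lie above 0 against KO + GFP, and mt-Co1, mt-Nd6, mt-Cytb and mt-Tq lie above 0 against WT + GFP.

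Per kilobase of full gene length, the rRNA genes had the most reads in every group, and mt-Rnr2 held the most reads in every library. Reads from a 3′ kit need not scale with gene length, and part of some genes could not be counted. Ranks per kilobase are therefore ranks of counted reads and not of RNA molecules. mt-Rnr1 (ENSMUSG00000064337, chrM:70-1024), the 12S RNA of the small ribosomal subunit, held 425308 and 390486 reads in the WT + GFP libraries, 321638 and 207071 in those of KO + GFP and 152793 and 154697 in those of KO + LEENE. As a share of the library this was 9.42% ± 0.0590, 5.73% ± 0.0207 and 8.63% ± 0.00587 (SD, n = 2 each), lowest in KO + GFP, with no overlap. mt-Rnr2 (ENSMUSG00000064339, chrM:1094-2675), the 16S RNA of the large subunit, had 1138996 and 1053172 reads, 886670 and 577019 reads, and 411101 and 412977 reads, or 25.3% ± 0.285, 15.9% ± 0.0636 and 23.1% ± 0.112 of the library. By share of the library KO + LEENE lay between KO + GFP and WT + GFP, and by share of the chromosome above both.

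The test for the rRNA genes depended on the scale. Against WT + GFP, KO + GFP was lower for mt-Rnr1 by -0.24 ± 0.058 (adjusted P = 6.16e-05) and for mt-Rnr2 by -0.20 ± 0.046 (adjusted P = 5.02e-05), and relative to the mitochondrial reads by -0.16 ± 0.012 and -0.12 ± 0.0069, but relative to the median of the protein genes both were higher, by 0.08 and 0.13. Between KO + LEENE and KO + GFP the TMM values were -0.55 ± 0.058 for mt-Rnr1 and -0.60 ± 0.047 for mt-Rnr2, whereas with library size alone they were 0.60 and 0.55, and relative to the mitochondrial reads 0.62 ± 0.012 and 0.57 ± 0.0069. Against WT + GFP, KO + LEENE was lower for mt-Rnr1 by -0.79 ± 0.058 (adjusted P = 5.53e-39) and for mt-Rnr2 by -0.80 ± 0.047 (adjusted P = 1.55e-57), and with library size alone by -0.12 and -0.13, but relative to the mitochondrial reads both were higher, by 0.46 ± 0.012 and 0.45 ± 0.0069. The ratio of mt-Rnr2 to mt-Rnr1 reads, which needs no scaling, was 2.69 ± 0.0135 for WT + GFP, 2.77 ± 0.0211 for KO + GFP and 2.68 ± 0.0148 for KO + LEENE. The KO + GFP ratio lay above the others in both libraries, and the WT + GFP and KO + LEENE ratios overlapped.

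Complex I, the NADH dehydrogenase that feeds electrons into the chain, has 7 subunits encoded here, and its genes took 86.3% ± 0.0152 of the protein-gene reads for WT + GFP, 77.6% ± 0.109 for KO + GFP and 61.7% ± 0.166 for KO + LEENE. These are shares of the reads that could be counted, since several protein genes were nearly uncountable, as described below. The complex I genes did not move as 1 block. mt-Nd1 (ENSMUSG00000064341, chrM:2751-3707) held 117001 and 108770 reads in the WT + GFP libraries, 75178 and 48531 in those of KO + GFP and 4306 and 4397 in those of KO + LEENE, that is 2.61% ± 0.0393, 1.34% ± 0.00227 and 0.244% ± 0.00164 of the library. It stepped down from group to group, by -0.48 ± 0.079 in KO + GFP relative to WT + GFP (adjusted P = 3.76e-09) and by -3.60 ± 0.088 in KO + LEENE against KO + GFP (adjusted P = 2.81e-225), but relative to the reads of the protein genes KO + LEENE was higher than KO + GFP by 0.30 (adjusted P = 8.29e-22).

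mt-Nd2 (ENSMUSG00000064345, chrM:3914-4951), which follows mt-Nd1 on the same strand, behaved differently. It held 226006 and 209351 reads in the WT + GFP libraries, 324923 and 212275 in those of KO + GFP and 1622 and 1720 in those of KO + LEENE. By share of the library this was 5.03% ± 0.0630, 5.83% ± 0.0394 and 0.0938% ± 0.00313, so KO + GFP was highest and KO + LEENE was 62.1-fold below it. The log2 fold change was 0.69 ± 0.065 in KO + GFP relative to WT + GFP (adjusted P = 8.76e-25) and -7.10 ± 0.084 in KO + LEENE against KO + GFP. The ratio of mt-Nd2 to mt-Nd1 reads was 1.93 ± 0.00491, 4.35 ± 0.0367 and 0.384 ± 0.0103 in the same order, so that the balance of these neighbours differed in each group.

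mt-Nd3 (ENSMUSG00000064360, chrM:9459-9806) spanned the widest range of the protein genes. It held 186 and 179 reads in the WT + GFP libraries, 2056 and 1355 in those of KO + GFP, and 1 read in each KO + LEENE library. By share of the library KO + GFP was 8.78-fold above WT + GFP, and the log2 fold change was 3.61 ± 0.088 (adjusted P = 2.09e-226). Its summed reads per total were 658-fold (95% counting interval 182 to 5439) lower in KO + LEENE than in KO + GFP, and 75.1-fold (20.6 to 622) lower than in WT + GFP. mt-Nd4l (ENSMUSG00000065947, chrM:9877-10173), another small subunit, had 1 read in each WT + GFP library and none elsewhere.

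mt-Nd4 (ENSMUSG00000064363, chrM:10167-11544) was highest in WT + GFP. It held 71988 and 65678 reads in the WT + GFP libraries, 9137 and 5802 in those of KO + GFP and 2257 and 2299 in those of KO + LEENE, or 1.59% ± 0.00286, 0.162% ± 0.00215 and 0.128% ± 0.000634 of the library. KO + GFP was 9.84-fold below WT + GFP by share and fell by 2.82 ± 0.098 on the log2 scale (adjusted P = 1.31e-136), and KO + LEENE was 1.26-fold below KO + GFP. On the TMM scale this last difference was -1.48 ± 0.094 (adjusted P = 3.32e-50) and relative to the mitochondrial reads -0.31 ± 0.041 (adjusted P = 5.01e-11), although relative to the reads of the protein genes it was 2.42.

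mt-Nd5 (ENSMUSG00000064367, chrM:11742-13565), the largest subunit, held 138611 and 130437 reads in the WT + GFP libraries, 123020 and 79596 in those of KO + GFP and 6456 and 6479 in those of KO + LEENE. Its share of the library was 3.11% ± 0.0736, 2.20% ± 0.000189 and 0.363% ± 0.00202. KO + GFP and WT + GFP did not pass the test, at -0.02 ± 0.074 (adjusted P = 0.80), but its call turned on the setting. It was lower with library size alone (-0.50), among genes with at least 10 reads in every library (-0.054, adjusted P = 4.09e-05) and among all genes with at least 1 read over the libraries (-0.10, adjusted P = 0.0484), and higher relative to the mitochondrial reads, by 0.057 ± 0.024 (adjusted P = 0.0312). This last call ended with the replicate block (adjusted P = 0.0954) and turned to -0.20 relative to the reads of the protein genes (adjusted P = 4.62e-13). Its share of the protein-gene reads was 19.9% ± 0.195, 17.4% ± 0.0467 and 19.4% ± 0.251, the narrowest relative range of the 7 protein genes with at least 1000 reads in every library. mt-Nd6 (ENSMUSG00000064368, chrM:13552-14070), the only protein gene on the minus strand, had 49969 and 46069 reads, 14101 and 9336 reads, and 5641 and 5914 reads. It fell by 1.65 ± 0.095 in KO + GFP relative to WT + GFP (adjusted P = 9.78e-59), and between KO + LEENE and KO + GFP its value was -0.80 ± 0.094 (adjusted P = 2.11e-16), but 0.35 with library size alone and 0.38 ± 0.042 relative to the mitochondrial reads. It made up 17.4% ± 0.312 of the protein-gene reads in KO + LEENE, against 7.11% ± 0.0334 in WT + GFP and 2.01% ± 0.0274 in KO + GFP.

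mt-Cytb (ENSMUSG00000064370, chrM:14145-15288) encodes cytochrome b, the only subunit of complex III made in the organelle. It held 74190 and 68940 reads in the WT + GFP libraries, 71894 and 46565 in those of KO + GFP and 7066 and 7099 in those of KO + LEENE, or 1.65% ± 0.0244, 1.28% ± 0.000833 and 0.398% ± 0.00190 of the library. KO + GFP against WT + GFP did not pass the test, at 0.11 ± 0.082 (adjusted P = 0.217), but relative to the mitochondrial reads it was higher, by 0.19 ± 0.031 (adjusted P = 1.51e-08), and relative to the reads of the protein genes it was -0.063 with no call (adjusted P = 0.0557). On the TMM scale it also passed as higher among genes with at least 10 reads in every library (0.083, adjusted P = 2.27e-11) and without the second KO + GFP library (0.19, adjusted P = 0.000503), whereas with library size alone it was lower, at -0.37 (adjusted P = 1.9e-23). KO + LEENE was lower than KO + GFP by -2.84 ± 0.088 (adjusted P = 2.34e-160), and by -1.66 ± 0.031 relative to the mitochondrial reads, whereas it was 1.07 higher relative to the reads of the protein genes. It made up 10.6% ± 0.00925, 10.2% ± 0.0198 and 21.3% ± 0.259 of the protein-gene reads.

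Complex IV, the cytochrome c oxidase that passes electrons to oxygen, was read almost wholly from mt-Co1 (ENSMUSG00000064351, chrM:5328-6872), its catalytic subunit. mt-Co1 held 22092 and 20279 reads in the WT + GFP libraries, 86976 and 55912 in those of KO + GFP and 5567 and 5731 in those of KO + LEENE. By share of the library this was 0.489% ± 0.00299, 1.55% ± 0.00721 and 0.317% ± 0.00395, with KO + GFP 3.16-fold above WT + GFP and 4.88-fold above KO + LEENE. The log2 fold change was 2.14 ± 0.090 in KO + GFP relative to WT + GFP (adjusted P = 3.45e-101) and -3.43 ± 0.095 in KO + LEENE against KO + GFP (adjusted P = 2.57e-190). Relative to the reads of the protein genes the latter was 0.47. Against WT + GFP, KO + LEENE was lower by -1.29 ± 0.088 (adjusted P = 2.17e-44), did not pass the test relative to the mitochondrial reads, at -0.04 ± 0.034 (adjusted P = 0.271), and was higher by 2.43 relative to the reads of the protein genes. mt-Co2 (ENSMUSG00000064354, chrM:7013-7696) had 1 read in the first KO + GFP library and none elsewhere, and mt-Co3 (ENSMUSG00000064358, chrM:8607-9390) had none in any library. The ATP synthase, which uses the proton gradient to make ATP, was not detectable in a comparable way, since mt-Atp8 (ENSMUSG00000064356, chrM:7766-7969) had no read and mt-Atp6 (ENSMUSG00000064357, chrM:7927-8607) had 1 and 1, 4 and 0, and 2 and 5 reads.

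**Figure D3:**
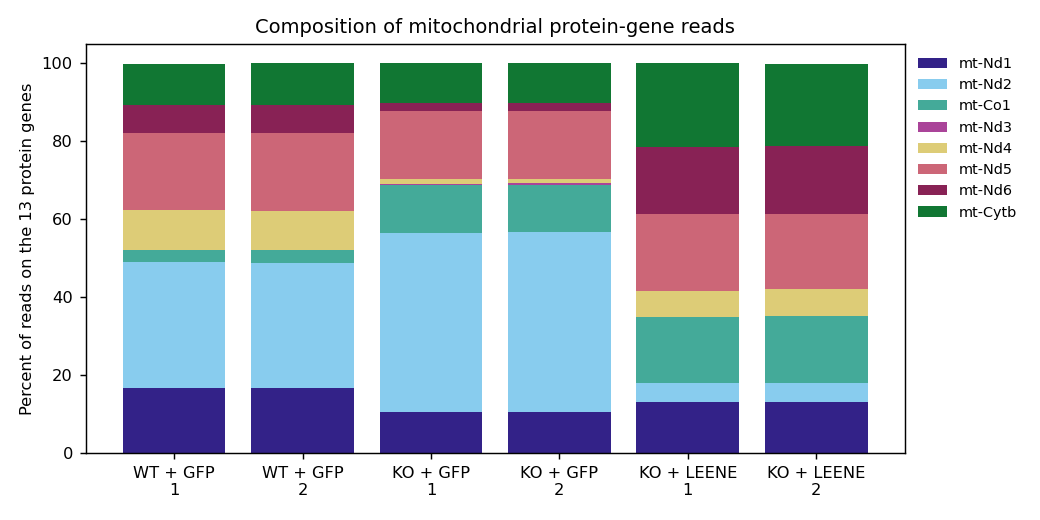
Stacked bars give the percent of protein-gene reads on each of the 8 protein genes that passed 5 reads, for each library. Replicates look alike, mt-Nd2 takes 32.3%, 46.1% and 5.02% in WT + GFP, KO + GFP and KO + LEENE, mt-Co1 takes 3.14%, 12.2% and 17.0%, and mt-Nd6 and mt-Cytb widen in KO + LEENE.

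Among the 22 tRNA genes, 12 had no read in any library, 5 had 5 reads or fewer and 5 had more. mt-Tp (ENSMUSG00000064372, chrM:15356-15422), the proline tRNA on the minus strand next to the control region, had 5609 and 5276 reads in WT + GFP and none in any of the 4 KO libraries. Taking 3 reads as the least that a library can show, KO + GFP lay at least 1846-fold lower and KO + LEENE at least 746.7-fold lower than WT + GFP, and both KO groups being at 0, no fold is given between them. In WT + GFP its level per kilobase, 1.877e+04 CPM, exceeded that of mt-Nd5, at 1.704e+04 CPM. As a class the tRNA genes took 0.290% of the mitochondrial reads for WT + GFP, 0.0943% for KO + GFP and 0.0894% for KO + LEENE, but without mt-Tp the order turned, with 0.0406% ± 0.00325, 0.0943% ± 0.00135 and 0.0894% ± 0.00659.

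mt-Tm (ENSMUSG00000064344, chrM:3845-3913), the methionine tRNA just upstream of mt-Nd2, held 928 and 773 reads in the WT + GFP libraries, 1681 and 1124 in those of KO + GFP and 436 and 497 in those of KO + LEENE. It rose by 1.12 ± 0.078 in KO + GFP relative to WT + GFP (adjusted P = 3.69e-42). Although it abuts mt-Nd2, it did not follow it, since mt-Tm had 3.90 ± 0.293 and 5.23 ± 0.0859 reads per 1000 mt-Nd2 reads in WT + GFP and KO + GFP but 279 ± 14.3 in KO + LEENE. In KO + LEENE against KO + GFP its value was -1.37 ± 0.083 (adjusted P = 1.57e-54), and -0.19 ± 0.069 relative to the mitochondrial reads (adjusted P = 0.00954). The latter call was lost with DESeq2 (-0.19, adjusted P = 0.0665), without the first or the second KO + GFP library (-0.22 and -0.17, adjusted P = 0.0875 and 0.16) and without the first KO + LEENE library (-0.11, adjusted P = 0.372), and relative to the reads of the protein genes the value was 2.54. Against WT + GFP, KO + LEENE was -0.25 ± 0.085 (adjusted P = 0.00522), but relative to the mitochondrial reads it was higher by 1.00 ± 0.072 (adjusted P = 7.17e-25), and with library size alone by 0.42. The TMM call was lost with DESeq2 (adjusted P = 0.111), among all genes with at least 1 read (adjusted P = 0.0981), without the first WT + GFP library (-0.21, adjusted P = 0.136) and without the first or the second KO + LEENE library (-0.12 and -0.28, adjusted P = 0.491 and 0.0755).

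The other named tRNAs rest on few reads. mt-Tq (ENSMUSG00000064343, chrM:3772-3842), for glutamine, held 16 and 8 reads in the WT + GFP libraries, 45 and 34 in those of KO + GFP and 1 and 3 in those of KO + LEENE, and rose by 2.10 ± 0.34 in KO + GFP relative to WT + GFP (adjusted P = 2.73e-09). In KO + LEENE it was lower than in KO + GFP by -4.02 ± 0.53 (adjusted P = 1.27e-13), but relative to the reads of the protein genes the value was -0.17 with no call (adjusted P = 0.843). It was lower in KO + LEENE than in WT + GFP by -1.92 ± 0.71 (adjusted P = 0.0109). The latter call was lost with library size alone, among all genes with at least 1 read, with DESeq2 and without the first WT + GFP (-1.43) or the first KO + LEENE library (-1.32), with adjusted P between 0.0533 and 0.167. mt-Tr (ENSMUSG00000064361, chrM:9808-9875), for arginine, had 16 and 16, 54 and 23, and 56 and 61 reads, and was the 1 gene called higher in KO + LEENE than KO + GFP, by 0.82 ± 0.24 (adjusted P = 0.00112). Without the second KO + GFP library that call was lost (0.56, adjusted P = 0.058), as it was with DESeq2 at a larger fold (0.98, adjusted P = 0.0712). Against WT + GFP, mt-Tr was higher by 2.47 ± 0.29 (adjusted P = 1.3e-16). mt-Tl2 (ENSMUSG00000064366, chrM:11671-11741), a leucine tRNA, had 10 and 6, 8 and 3, and 12 and 5 reads and passed the test in no TMM comparison. Relative to the mitochondrial reads it was higher in KO + LEENE than KO + GFP, by 2.002 ± 0.60 (adjusted P = 0.00178), but not without the first KO + LEENE library (1.25, adjusted P = 0.262), and the same held against WT + GFP (1.93 ± 0.56, adjusted P = 0.00133, and 1.17, adjusted P = 0.277).

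By strand, 28 genes lie on the plus strand and 9 on the minus strand, namely mt-Nd6 and 8 tRNA genes. The minus-strand genes took 2.45% ± 0.00147 of the mitochondrial reads for WT + GFP, 0.745% ± 0.0107 for KO + GFP and 0.964% ± 0.0272 for KO + LEENE. Most of these reads were on mt-Nd6, which alone took 2.20%, 0.743% and 0.964%. mt-Nd6 lies tail to tail with mt-Nd5, and the ratio of their reads was 0.357 ± 0.00517 for WT + GFP, 0.116 ± 0.00189 for KO + GFP and 0.893 ± 0.0276 for KO + LEENE. Since the reads were counted without strand, reads that arise from mt-Nd5 transcripts running past the gene end into the mt-Nd6 interval cannot be told apart from mt-Nd6 reads. The strand of the mt-Tp reads is likewise unknown, and they need not come from the mature tRNA.

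By position, the rRNA genes moved alike, as their ratio above shows, but the protein genes on the plus strand did not all follow their neighbours. From mt-Nd1 to mt-Co1 the genes took 52.1% ± 0.0484 of the protein-gene reads for WT + GFP, 68.9% ± 0.0570 for KO + GFP and 35.1% ± 0.208 for KO + LEENE, with mt-Nd4 to mt-Cytb taking 47.9%, 30.8% and 64.9%, of which the minus-strand mt-Nd6 made up 7.11, 2.01 and 17.4 points. Within the latter stretch mt-Nd4 had 0.511 ± 0.0112, 0.0736 ± 0.000975 and 0.352 ± 0.00371 reads per mt-Nd5 read, and mt-Cytb had 0.532 ± 0.00474, 0.585 ± 0.000430 and 1.10 ± 0.000854. Ranks per kilobase use full gene length, although mt-Nd3, mt-Nd4 and mt-Co1 were countable only in part, so their places could differ per countable base. On that basis mt-Rnr2 and mt-Rnr1 led in all groups by reads per kilobase of full length. They were followed by mt-Nd2, mt-Nd1 and mt-Nd6 for WT + GFP, by mt-Nd2, mt-Nd1 and mt-Nd5 for KO + GFP, and by mt-Nd6, mt-Tm and mt-Cytb for KO + LEENE, where mt-Nd2 stood 10th. In KO + LEENE mt-Tm and mt-Cytb, at 3794 ± 320 and 3476 ± 16.6 CPM per kilobase, lay within the spread of mt-Tm, as did mt-Nd4 and mt-Nd2, at 928 ± 4.604 and 904 ± 30.2, within that of mt-Nd2.

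**Figure D4:**
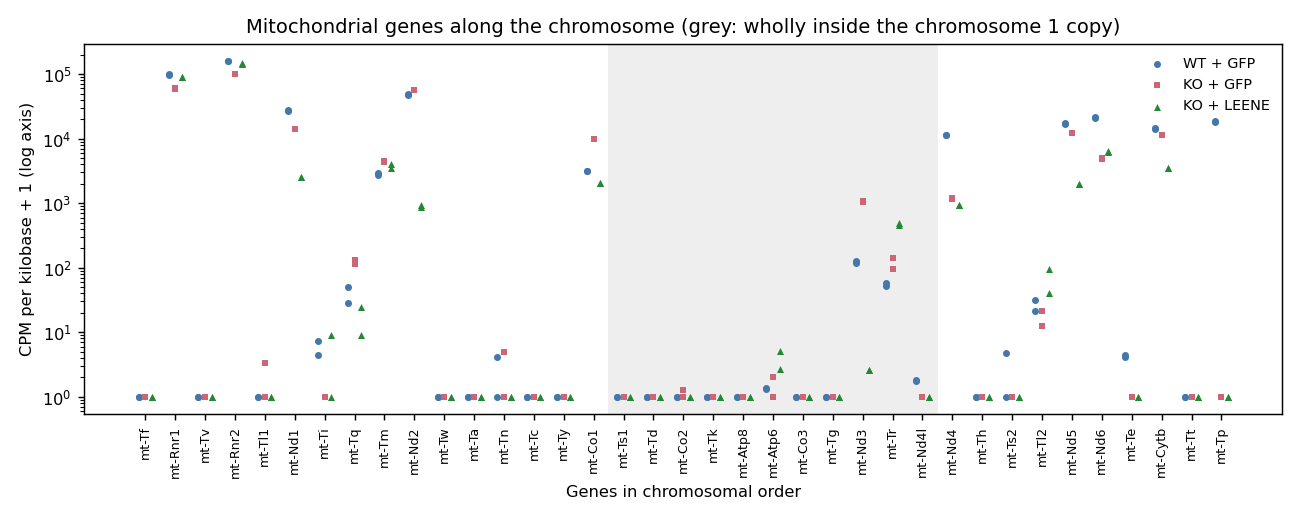
Points give CPM per kilobase of gene plus 1, on a log axis, for the 37 genes in chromosomal order in the 6 libraries, with the genes wholly inside the chromosome 1 copy on grey. On grey mt-Nd3 and mt-Tr alone exceed 5 reads in a library, whereas mt-Tp at the far right is seen in WT + GFP only.

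The stretch with few reads coincided with a nuclear copy of the chromosome. In the GRCm39 genome, chr1:24650616-24655269 matches positions 6390 to 11042 of the mitochondrial chromosome at 99.9% identity, with 2 mismatches and 1 gap. Of the 37 genes, 11 lie wholly inside this match, and 9 of these have no difference from the copy, among them mt-Co2, mt-Atp8, mt-Atp6, mt-Co3 and mt-Nd4l. No library had more than 5 reads on any of the 9. The other 2 are mt-Nd3 and mt-Tr, each with 1 difference, and both were detected. The files name uniquely aligned reads, and a read that matches both places equally well is not unique. For the genes inside the match, a low count does not give the level of the RNA.

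Windows of a fixed length were used to ask which stretches a read could be counted on, that is, which touch no second gene and occur nowhere else in the genome. At 75 bases mt-Nd3 had 3 such windows of 275 that touch it alone, all of which cover the capital base shown above, mt-Nd4 had 503 of 1298, mt-Co1 886 of 1469, and mt-Rnr1, mt-Nd1, mt-Nd6 and mt-Cytb kept all of theirs. The values of mt-Nd3, mt-Nd4 and mt-Co1 thus describe part of each gene. The shares by class, complex and position given above are likewise shares of the countable reads, and do not give the composition of the RNA. Of the 22 tRNA genes only 4 had a 75-base window that touches no other gene, and mt-Tp had the most, at 67, because it borders on the control region, in which no gene is annotated. Each of these mt-Tp windows runs into that region, since none fits inside the gene. mt-Tm, with up to 1681 reads, had none at 75 bases and 22 at 50 bases. The length of the aligned reads is not given in the sources used here.

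**Figure D5:**
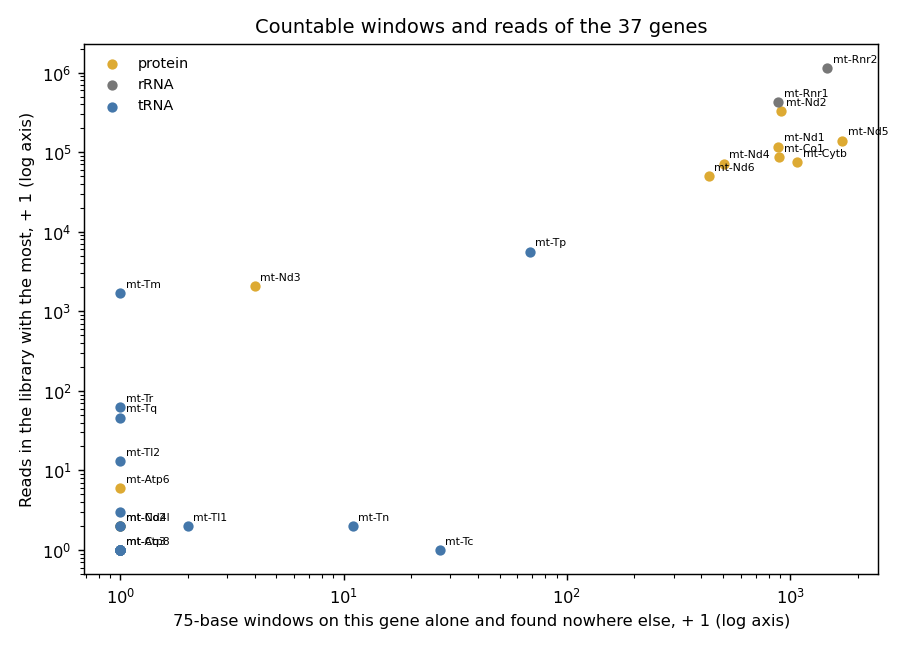
Each point is 1 of the 37 genes, with the number of 75-base windows that touch no other gene and occur nowhere else plus 1 on the horizontal log axis, and the reads in the library with the most plus 1 on the vertical log axis. The 2 rRNA genes and 7 of the protein genes sit at the upper right, mt-Co2, mt-Atp8, mt-Atp6, mt-Co3 and mt-Nd4l sit at the lower left with no window, and mt-Tm has 1681 reads without one.

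Genes annotated as nuclear copies of mitochondrial genes took few reads, with the exception of Gm13340 on chromosome 2. Gm13340, as long as mt-Co1 at 1545 bases, held 22956 and 21252 reads in the WT + GFP libraries, 16320 and 10582 in those of KO + GFP and 10475 and 10715 in those of KO + LEENE, and so did not follow mt-Co1, which was highest in KO + GFP. Gm13341, also on chromosome 2, had 493 and 447, 910 and 574, and 16 and 16 reads, and fell by 5.30 ± 0.16 in KO + LEENE against KO + GFP (adjusted P = 1.34e-170). On chromosome 1, Gm28437 had between 41 and 163 reads per library, Gm29216 between 6 and 84, Gm28661 between 3 and 52, Gm28439 between 0 and 47, Gm28438 between 0 and 10 and Gm10222 between 0 and 4. All copies together held 23787 and 21988, 17525 and 11347, and 10550 and 10789 reads, and counting them as mitochondrial moved the share of the library to 34.6% in KO + GFP and 34.3% in KO + LEENE. Of the 8 copies in the files, 6 were tested. In KO + GFP 2 were higher and 2 lower than in WT + GFP (66.7% called, against 70.1% of all genes), and in KO + LEENE 5 were lower than in KO + GFP (83.3%, against 67.8%) and 6 lower than in WT + GFP (all of them, against 70.7%), with median log2 fold changes of -0.05, -2.80 and -2.72. With library size alone the medians were -0.54, -1.68 and -2.06. Gm13340, which held most of the copy reads, was at -0.45 in KO + LEENE against WT + GFP, but at 0.22 with library size alone.

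The nuclear genes that serve the mitochondrial chromosome were counted by lists, each read against the share of DEGs among all genes given above. Some genes near absent elsewhere passed the filter on low counts only through the group where they were high. Tfam, with 2 and 0, 154 and 108, and 2 and 2 reads, is 1 of them. The direction of their calls follows from the filter, so the counts and medians of all lists here describe the tested genes only. Of 20 genes of mitochondrial transcription and genome maintenance, only 5 passed the filter on low counts, and 4 were higher and 1 lower in KO + GFP than WT + GFP, 1 higher and 4 lower in KO + LEENE than in KO + GFP, and 1 higher and 4 without a call against WT + GFP (median log2 fold change 2.74, -3.86 and 0.03, and 2.26, -2.75 and 0.65 with library size alone). Of 35 genes of mitochondrial RNA processing and stability, 10 were tested, with 1 higher and 6 lower, 7 higher and 1 lower, and 4 higher and 2 lower in the same comparisons (medians -1.84, 3.17 and 0.84, and -2.26, 4.29 and 1.5 with library size alone). Among them Lrpprc, which stabilizes mitochondrial messenger RNAs, held 430 and 326 reads in the WT + GFP libraries, 10 and 3 in those of KO + GFP and 7 and 4 in those of KO + LEENE. Rexo2, an exonuclease that clears short RNA fragments, had 757 and 691, 3 and 3, and 23 and 18 reads. Trit1, which modifies tRNAs, had 2 and 0, 0 and 1, and 245 and 284 reads.

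Of 10 nuclear regulators of mitochondrial biogenesis, 5 were tested, with 2 higher and 2 lower, 2 higher and 1 lower, and 3 higher and 1 lower (medians 0.17, -0.18 and 1.26, but -0.30, 0.98 and 1.93 with library size alone, where the first and the second turned sign). Esrra, a nuclear receptor that drives respiratory genes, had 3 and 4, 4 and 2, and 1015 and 1086 reads, and Prkaa1, a catalytic subunit of AMP-activated kinase, had 591 and 560, 5 and 1, and 2 and 2. Nrf1 and Yy1, transcription factors of respiratory genes, were higher in both KO groups than in WT + GFP, Nrf1 by 1.44 ± 0.16 in KO + GFP (adjusted P = 3.63e-19) and Yy1 by 2.84 ± 0.12 (adjusted P = 3.98e-99). Of the 78 mitochondrial ribosomal proteins, which join the 2 rRNAs in the ribosome, 21 were tested, with 6 higher and 11 lower, 4 higher and 7 lower, and 4 higher and 10 lower (medians -1.16, -0.83 and -2.08, but -1.63, 0.12 and -1.48 with library size alone, where the second turned sign). Mrpl17 had 581 and 493, 3 and 3, and 0 and 1 reads, Mrps35 had 227 and 189, 28 and 29, and 33 and 28 reads, and Mrps22 had 136 and 155, 5 and 1, and 162 and 157 reads.

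Of 87 nuclear-encoded subunits of the respiratory chain and the ATP synthase, the partners of the 13 mitochondrial proteins, 48 were tested. In KO + GFP 21 were higher and 21 lower than in WT + GFP (87.5% called, median log2 fold change -0.40). In KO + LEENE 13 were higher and 24 lower than in KO + GFP (77.1% called, median -1.80), and 15 were higher and 23 lower than in WT + GFP (79.2% called, median -1.24). With library size alone the medians were -0.86, -0.68 and -0.58. Single members were near absent in 1 or 2 groups and abundant in another. Uqcrh, a complex III subunit, held 0 and 3 reads in the WT + GFP libraries, 14711 and 9419 in those of KO + GFP and 7 and 5 in those of KO + LEENE. Cox4i1 of complex IV had 1421 and 1264, 3 and 2, and 340 and 382 reads, and Ndufv2 of complex I had 1341 and 1244, 3 and 2, and 3 and 1. Atp5f1d of the ATP synthase had 1 and 3, 2 and 0, and 2304 and 2249 reads.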

How the data were processed

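Reads of 6 bulk RNA-seq libraries, 2 per group by the sample titles, were analysed as deposited. A 10x Genomics 3′ kit was used without its droplet step, per the labels. Per the file headers, the authors counted uniquely aligned reads with featureCounts 2.0.0 over exons of Ensembl release 84 on GRCm38, without strand and without options for reads over several genes or sites, so the deposited values are raw read counts. The submitters' processing notes name STAR 2.5.4b and mm10. No collapsing of molecular identifiers is named, so intervals and floors (3 reads per library) cover counting error only.

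Of 47729 genes, 43465 had a symbol in GENCODE M39. Genes were kept by filterByExpr (minimum count 10, minimum total 15) and tested with the edgeR 4.0.16 quasi-likelihood test (R 4.3.3) in 1 fit of all libraries with TMM scaling and Benjamini-Hochberg adjustment. The SE is the log2 fold change divided by the square root of F, an approximation. A second fit set library sizes to the mitochondrial reads. The method was tested on simulated counts. DESeq2 1.42.0, scaling, filters, a replicate block and leaving out libraries were alternatives. Copies were sought with blastn 2.17.0 (word size 28, minimum identity 80%) in GRCm39.

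All protein and rRNA genes are named. A tRNA gene is named with at least 100 reads in a library, or among the 3 largest rises or falls within the chromosome. List genes are named among the 3 largest rises or falls with a mean of at least 20 CPM. The members and lists were chosen with earlier results of these data known. Replicates with the same number did not deviate together (r = 0.0306, 0.0138 and 0.0192), so the numbers do not pair libraries.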

Additional observations from a re-analysis of the deposited data

How the results depend on the processing

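Of 590 gene values recomputed under other settings, 546 kept direction and call, 11 lost a call, 6 gained one and 27 turned. Leaving out a library left 510 of 528 as they were, with 11 calls lost, 1 gained and 6 turned. Leave-one-out counts of genes higher and lower ran from 6 to 7 and stayed at 6 for KO + GFP against WT + GFP, from 0 to 1 and at 12 for KO + LEENE against KO + GFP, and at 1 and from 11 to 13 for KO + LEENE against WT + GFP. Within the chromosome they stayed at 8 and 6, and ran from 4 to 5 and 8 to 9, and from 4 to 5 and at 8. The 0 without the second KO + GFP library (edgeR) and the 0 higher with DESeq2, against 1 in the main result and 5 with library size alone, both rest on mt-Tr, which had an unadjusted P under 0.05 in each (1 gene). Against WT + GFP the count in KO + LEENE was 3 with library size alone. The replicate block gave 6 and 6, 1 and 12, and 1 and 13 genes, and 7 and 6, 5 and 9, and 5 and 8 within the chromosome. It ended 1 call, that of mt-Nd5 within the chromosome (KO + GFP against WT + GFP, 0.06, adjusted P = 0.0954), and changed no other.

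Signs turned mostly with the denominator, as its construction implies. With library size alone mt-Cytb was -0.37 (KO + GFP against WT + GFP), mt-Rnr1, mt-Rnr2 and mt-Nd6 were 0.60, 0.55 and 0.35 (KO + LEENE against KO + GFP), and mt-Tm was 0.42 (KO + LEENE against WT + GFP). Within the chromosome, on the median of the protein genes, mt-Rnr1, mt-Rnr2 and mt-Tl2 were 0.082, 0.13 and 0.16 in KO + GFP against WT + GFP, mt-Tm, mt-Nd4 and mt-Cytb were 1.60, 1.49 and 0.13 in KO + LEENE against KO + GFP, and mt-Tq, mt-Co1, mt-Nd6 and mt-Cytb were 1.30, 1.998, 0.85 and 0.57 in KO + LEENE against WT + GFP. On the reads of the protein genes, mt-Nd5 and mt-Cytb were -0.20 and -0.063 in the first comparison, mt-Nd1, mt-Tm, mt-Co1, mt-Nd4, mt-Nd5 and mt-Cytb were 0.30, 2.54, 0.47, 2.42, 0.16 and 1.07 in the second, and mt-Tq, mt-Co1, mt-Nd6 and mt-Cytb were 1.74, 2.43, 1.29 and 1.00 in the last. On the median of the protein genes 8 genes were higher and 5 lower in KO + LEENE than in KO + GFP and 8 higher than in WT + GFP, and on their reads 11 higher and 2 lower, and 8 higher and 5 lower. The share of all genes called was not counted for either denominator. Leaving out 1 library turned 2 genes. In KO + GFP against WT + GFP mt-Tl2 was 0.16 and 0.18 (within the chromosome 0.27 and 0.19) without the first WT + GFP or the second KO + GFP library, and mt-Nd5 was 0.053 without the latter, while mt-Tl2 was -0.022 in KO + LEENE against WT + GFP without the first KO + LEENE library. Over all such omissions these values ran from -0.70 to 0.18, -0.58 to 0.27, -0.081 to 0.053 and -0.022 to 1.25.

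Shares are given in the order WT + GFP, KO + GFP, KO + LEENE. Without the 20 most abundant nuclear genes of any library (48 in all) the mitochondrial share was 62.6%, 46.2% and 45.6%, with protein genes only 15.6%, 12.7% and 1.87%, and with nuclear copies counted 34.6% and 34.3% in the KO groups. Without mt-Rnr2 the rRNA share was 37.5%, 31.1% and 82.0%, the tRNA share 0.581%, 0.176% and 0.286%, and the minus-strand share 4.91%, 1.39% and 3.08%. Per base of gene length they were 61.0%, 58.2% and 91.3%, 5.13%, 1.70% and 1.68%, and 9.48%, 1.83% and 2.42%. Depth limits mt-Nd3 in KO + LEENE and mt-Tq, mt-Tr and mt-Tl2 throughout.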
